A study of Mus musculus with 6 samples.

Results

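The collagen family of mouse airway basal cells is described here across 2 culture conditions. Its members are the genes whose symbol in the deposited expression table is Col, a number, the letter a and a number, which selects 44 of 56748 genes. The RNA came from primary basal cells, the stem cells of the airway epithelium, taken from the trachea of wild-type mice and kept in culture for 4 days. Of 6 libraries, 3 came from cells given UK-5099, which blocks pyruvate entry into mitochondria through its carrier. The other 3 came from cells given 3 inhibitors at once, namely Y-27632 (a ROCK inhibitor), A8301 (against TGF-beta receptors of type I) and DMH-1 (against BMP receptors of type I). The labels give no age, sex or dose, and they do not say whether Y-27632 was also present with UK-5099. There were no untreated cells, so a difference separates these conditions and does not tell which of them departed from an untreated state. Nothing in the labels says whether replicates were separate animals or cultures, and the p-values therefore rest only on how far these samples spread, which may be technical spread.

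Collagens are secreted or membrane-bound proteins built from chains wound into a triple helix. Fibrillar chains form the fibres of connective tissue and come mostly from fibroblasts, cartilage and bone cells, and chains of the FACIT group lie on the surface of such fibres. Network-forming collagen IV is the scaffold of basement membranes, the sheets on which epithelia rest. In a stratified or pseudostratified epithelium the basal cell is held to that sheet by hemidesmosomes, which contain the transmembrane collagen XVII, and by anchoring fibrils of collagen VII below them.

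The libraries held between 19909589 and 27037795 gene reads each, and all values below are normalized counts, meaning reads divided by the authors' size factor for the library. The 10 markers of airway basal cells were all detected well enough to be tested, and 6 of them (60%) were higher with UK-5099. Over all 15704 genes tested, 27.2% were higher and 26.6% lower, and the markers were not tested against these shares. The higher ones were Krt14 (log2 fold change 2.50), Krt5 (1.59), Trp63 (0.77), Snai2 (0.84), Pdpn (0.72) and Itga6 (0.39). Ngfr and Epcam were lower (-2.20 and -0.32), and Cdh1 and Krt15 did not pass (-0.17 and -0.07), though both did with libraries centred on their median (limma adjusted p = 0.00805 and 0.0183). In bulk RNA, fewer cells of a type and less RNA per cell cannot be told apart, which holds for every level below.

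Collagen transcripts in these cells were mostly those of the basement membrane zone. Col17a1 alone gave 57.5% ± 0.22 of the collagen counts in UK-5099 cells and 52.2% ± 0.39 in 3-inhibitor cells (SD, n = 3). Together with Col18a1, Col4a2, Col4a1, Col4a5 and Col12a1 it made up 95.5% ± 0.12 and 92.9% ± 0.24. The 11 fibrillar chains gave 0.368% ± 0.051 and 0.757% ± 0.091. These shares, and the shares given below, are of counts and are not corrected for exon length. Of the 44 chains, 17 reached the mean of 10 normalized counts needed for testing, 27 did not, and 7 of these had no read in any library. With UK-5099, Col17a1, Col7a1, Col4a1, Col4a2, Col18a1, Col2a1, Col12a1 and Col26a1 were higher, and Col4a5, Col11a2 and Col8a1 were lower.

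The 8 higher chains were 47.1% of the 17 tested, where 27.2% of all 15704 genes tested were higher (limma, Benjamini-Hochberg adjusted p under 0.05). The 3 lower chains were 17.6%, where 26.6% of all genes were lower. In either direction 11 of 17 chains passed (64.7%), beside 53.8% of all genes, and the same 11 had replicates that did not overlap between the conditions, as did 60.8% of all genes. Differences of at least 2-fold were held by 3 higher chains (Col4a1, Col4a2 and Col2a1), where 4.67% of all genes were so. They were also held by 1 lower chain (Col8a1), where 5.48% were. Col8a1, also counted among the 3 lower and the 11 passing chains, reached the mean needed for testing only through the 3-inhibitor libraries. The median log2 fold change of the 17 chains was 0.03 and that of all genes tested was -0.00. These counts describe the chains abundant enough to be tested, not the family. The share with non-overlapping replicates lay near that over all genes.

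**Figure D1:**
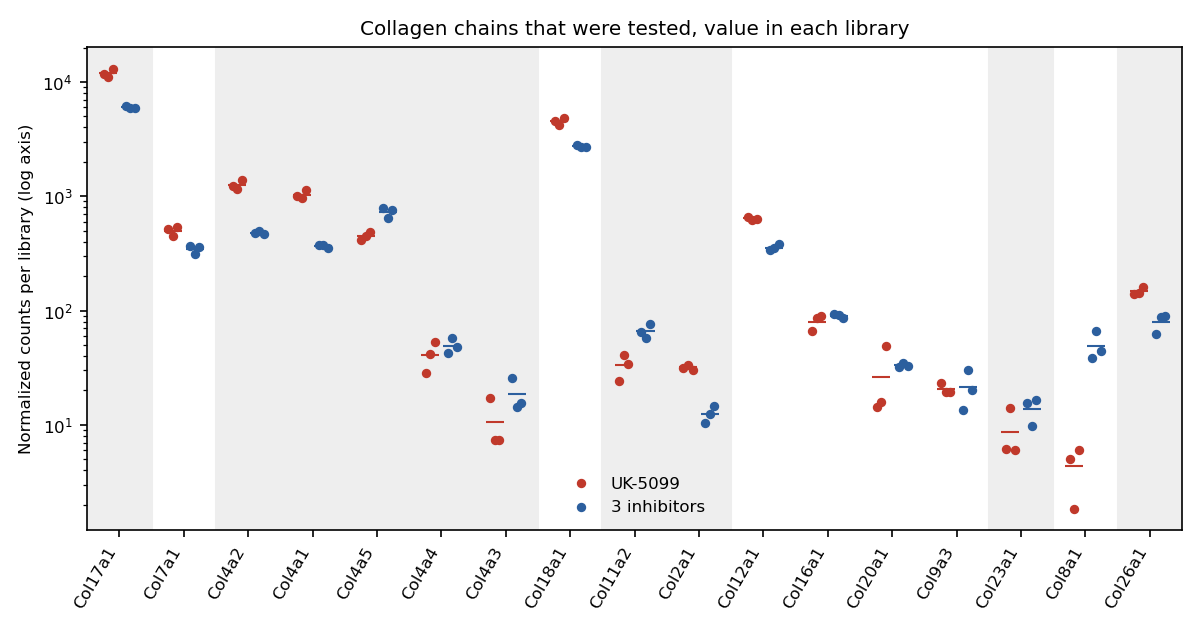
Normalized counts (log axis) of the 17 collagen chains tested, in each library. Red points are the 3 UK-5099 libraries, blue points the 3 libraries with 3 inhibitors, bars the group means, and shaded bands separate the classes. Col17a1 lies highest in both conditions, and Col8a1 shows the widest gap between them.

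All normalized counts of the 44 chains together ranged from 19346 to 22471 per library with UK-5099 and from 11289 to 11718 with the 3 inhibitors. This was 0.0864% ± 0.0058 and 0.0475% ± 0.00068 of all normalized counts (SD, n = 3). Without Col17a1 the shares were 0.0367% ± 0.0023 and 0.0227% ± 0.00042. The higher total with UK-5099 was therefore seen both with and without the most abundant chain.

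Col17a1 (ENSMUSG00000025064) encodes the transmembrane collagen of the hemidesmosome, which reaches from the basal cell into the basement membrane. It stood at 11819, 11088 and 12977 normalized counts in UK-5099 replicates 1, 2 and 3, and at 6151, 5916 and 5879 with the 3 inhibitors. Every UK-5099 library lay far above every 3-inhibitor library. The means were 11961 ± 952.3 and 5982 ± 147.4 (SD, n = 3), a log2 fold change of 1.00 ± 0.05 (SE), or 1.996-fold (limma adjusted p = 5.44e-08). The stretch of promoter before its start is shown because it belongs to the most abundant chain of the family. It is RefSeq sequence of GRCm38.p6, chr19:47692095-47692292 on the minus strand, and the capitals mark both copies of TATAAA, the TATA box motif.

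Col17a1: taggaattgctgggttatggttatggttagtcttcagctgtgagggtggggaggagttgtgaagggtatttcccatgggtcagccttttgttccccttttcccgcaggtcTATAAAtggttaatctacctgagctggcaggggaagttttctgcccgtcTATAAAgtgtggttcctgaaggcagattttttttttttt

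TATAAA, searched on both strands after the sequence had been read, occurs in 9.90% of 32851 promoter stretches of this length. The GC box (spelled GGGCGG) was not found in this window and occurs in 31.0% of such stretches. Nor was the CCAAT box, which occurs in 29.2% of them. The AP-1 site (spelled TGANTCA), which occurs in 5.42%, and the SMAD half-site (spelled CAGAC), which occurs in 35.2%, were also not found.

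Col7a1 (ENSMUSG00000025650) encodes the chain of the anchoring fibrils, which tie the basement membrane to the tissue below. It stood at 514.1, 447.3 and 542.0 normalized counts with UK-5099 and at 369.0, 313.7 and 360.8 with the 3 inhibitors. All UK-5099 libraries were again the higher ones, but the step was smaller than for Col17a1. The log2 fold change was 0.52 ± 0.09 (SE), or 1.44-fold (limma adjusted p = 5.18e-04). Per kb of exon, the Col17a1 level was 40.9 ± 1.5 times that of Col7a1 in UK-5099 cells and 29.6 ± 2.4 times in 3-inhibitor cells (SD, n = 3).

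The genes of collagen IV come as 3 pairs that lie head to head, and the chains of a pair are known to assemble with each other. Col4a1 and Col4a2 make the collagen IV found in nearly all basement membranes. Col4a3 and Col4a4 join with Col4a5 in membranes such as those of the kidney glomerulus and the alveolus, and Col4a5 also joins with Col4a6 in the basement membrane of several epithelia. In the GENCODE M21 annotation (GRCm38) the main transcripts of Col4a1 and Col4a2 start in opposite directions on chromosome 8 and overlap by 22 bases. Those of Col4a4 and Col4a3 start 126 bases apart on chromosome 1, and those of Col4a6 and Col4a5 1308 bases apart on chromosome X.

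Col4a1 (ENSMUSG00000031502) stood at 996.7, 961.5 and 1135 normalized counts with UK-5099 and at 373.1, 371.8 and 354.4 with the 3 inhibitors. Its log2 fold change was 1.49 ± 0.07 (SE), or 2.80-fold (limma adjusted p = 2.24e-08). Col4a2 (ENSMUSG00000031503) stood at 1217, 1162 and 1385 normalized counts against 475.2, 492.4 and 465.9, a log2 fold change of 1.39 ± 0.07 (SE), or 2.62-fold (limma adjusted p = 2.92e-08). Both genes of the pair were thus higher in every UK-5099 library, by similar factors. Their ratio per kb of exon, Col4a2 to Col4a1, was 1.37 ± 0.008 over the UK-5099 libraries and 1.47 ± 0.03 over the others (SD, n = 3), slightly lower in each of the former.

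Col4a5 (ENSMUSG00000031274) went the other way. It stood at 411.5, 451.0 and 482.3 normalized counts with UK-5099 and at 784.4, 647.0 and 764.6 with the 3 inhibitors, with no overlap. The log2 fold change was -0.70 ± 0.09 (SE), or 1.63-fold lower (limma adjusted p = 3.38e-05). The gene lies on the X chromosome, and sex-linked genes also differed between the conditions. Xist, the noncoding RNA of X inactivation, was at 24276 ± 1528 and 14246 ± 129.3 normalized counts, and the Y-linked Ddx3y was at 422 ± 13.0 and 745.1 ± 34.6 (SD, n = 3). The Y-linked Eif2s3y, Kdm5d and Uty were also lower in every UK-5099 library than in any 3-inhibitor library. Whether a different mix of female and male cells has a part in the Col4a5 difference, or in that of any other chain, was not tested.

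The remaining chains of collagen IV were scarce. Col4a4 was at 28.45, 41.76 and 53.59 normalized counts with UK-5099 and at 42.26, 57.19 and 48.42 with the 3 inhibitors (log2 fold change -0.29 ± 0.25, limma adjusted p = 0.363). Col4a3 was at 17.27, 7.424 and 7.307 against 25.77, 14.30 and 15.53 (-0.80 ± 0.40, limma adjusted p = 0.116). Both overlapped between the conditions, and Col4a3 passed the threshold when UK-5099 replicate 1 was left out (-1.18, limma adjusted p = 0.0343). Col4a6, under the minimum for testing, was at 4.064, 11.14 and 3.654 normalized counts with UK-5099 and at 14.43, 10.72 and 10.05 with the 3 inhibitors.

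The make-up of collagen IV transcripts therefore differed between the conditions. Col4a1 and Col4a2 together were 82.8%, 80.6% and 82.2% of the counts of the 6 collagen IV genes in the UK-5099 libraries, and 49.5%, 54.2% and 49.5% in the 3-inhibitor libraries. Col4a5 was 15.4%, 17.1% and 15.7% of them with UK-5099 and 45.7%, 40.6% and 46.1% with the 3 inhibitors. Per kb of exon, the Col4a5 level was 0.484 ± 0.033 times that of Col4a1 in UK-5099 cells and 2.22 ± 0.25 times in 3-inhibitor cells (SD, n = 3). Col4a1 was thus above Col4a5 in each UK-5099 library and below it in each 3-inhibitor library.

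**Figure D2:**
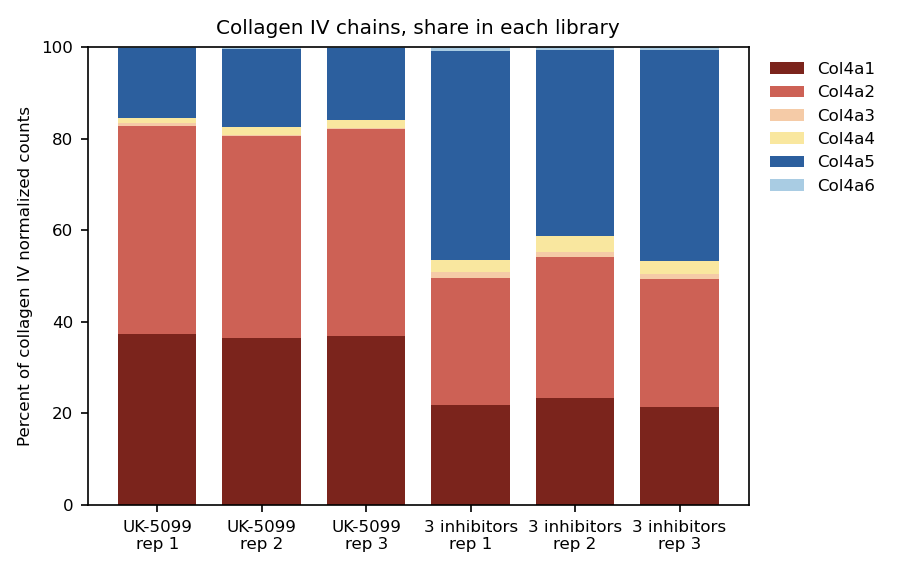
Share (percent) of each of the 6 collagen IV genes in the summed collagen IV normalized counts, with a bar for each library. Col4a1 and Col4a2 (reds) fill 80.6% to 82.8% of the bar with UK-5099 and 49.5% to 54.2% with the 3 inhibitors, where Col4a5 (blue) takes 40.6% to 46.1%.

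Sequences are shown from the start regions of the collagen IV genes that differed, since Col4a1 and Col4a2 share theirs and Col4a5 has another. They are RefSeq promoter sequence of GRCm38.p6 on the plus strand, and the capitals mark motif matches. The first is a piece, chr8:11312752-11312781, of the 115 bases between the start of a shorter Col4a1 transcript and that of Col4a2. These bases lie inside the main Col4a1 transcript, which starts further on. The capitals mark a GC box (GGGCGG, read on the minus strand) and a CCAAT box. The second, chrX:141475169-141475384, precedes the start of Col4a5, and its capitals mark a CCAAT box.

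Col4a1 and Col4a2 start region: gcgcgCCGCCCgaggagctccCCAATttgt

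Col4a5: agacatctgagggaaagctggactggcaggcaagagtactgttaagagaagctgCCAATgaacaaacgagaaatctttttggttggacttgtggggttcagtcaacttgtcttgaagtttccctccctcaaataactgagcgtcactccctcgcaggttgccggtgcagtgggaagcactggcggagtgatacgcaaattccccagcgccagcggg

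The 115 bases between the start of the shorter Col4a1 transcript and that of Col4a2 had a GC content of 73.9%, where the median of 32851 promoter stretches of that length was 54.8%, and the Col4a5 stretch had 52.3%. The GC box was found in 26.1% of all stretches of 115 bases and the CCAAT box in 20.7%. The CCAAT box was found in 30.8% of all stretches as long as that of Col4a5. The AP-1 site, the SMAD half-site and the TATA box matched in neither region. These matches are descriptions of the letters and not evidence of binding.

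Of the multiplexins, basement membrane collagens whose triple helix is interrupted many times, Col18a1 was abundant and Col15a1 was not. Col18a1 (ENSMUSG00000001435), the source of endostatin, stood at 4555, 4187 and 4816 normalized counts with UK-5099 and at 2795, 2706 and 2684 with the 3 inhibitors. It was higher in every UK-5099 library, with a log2 fold change of 0.73 ± 0.05 (SE), or 1.65-fold (limma adjusted p = 4.48e-07). Per kb of exon, the Col17a1 level was 3.09 ± 0.06 times that of Col18a1 in UK-5099 cells and 2.56 ± 0.008 times in 3-inhibitor cells (SD, n = 3). The annotated span of Col18a1 overlaps that of Slc19a1, a folate carrier on the opposite strand with a mean of 390.4 normalized counts, over 8825 bases, and the strand setting of the counting is not given in the sources used here. Col15a1 had 21 reads in all 6 libraries.

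Of the 11 fibrillar chains, 9 were under the minimum for testing and close to the limit of detection. Col1a2, Col3a1 and Col11a1 had 0 of 146046854 reads, which allows up to 3 reads over the 6 libraries, and Col1a1 had 15. Col27a1 had 31 reads, Col5a1 5, Col5a3 4, Col5a2 2 and Col24a1 1. The major chains of connective tissue fibres were therefore not detectable, or nearly so, at this depth. The summed counts of the 11 chains ranged from 69.09 to 82.60 with UK-5099 and from 77.75 to 97.75 with the 3 inhibitors. Most of these came from Col11a2 and Col2a1, which had 306 and 132 reads.

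The pair of fibrillar chains that could be tested, both known from cartilage, differed in opposite directions. Col2a1 stood at 31.50, 33.41 and 30.45 normalized counts with UK-5099 and at 10.31, 12.51 and 14.62 with the 3 inhibitors (log2 fold change 1.29 ± 0.27, or 2.45-fold higher, limma adjusted p = 0.00152). Col11a2 stood at 24.38, 40.83 and 34.10 against 64.94, 57.19 and 75.82 (-0.99 ± 0.23, or 1.99-fold lower, limma adjusted p = 0.00305). For neither gene did the replicates overlap. None of 11 other cartilage markers reached the mean needed for testing. Their summed level was 10.16 to 25.58 normalized counts with UK-5099 and 21.65 to 25.58 with the 3 inhibitors, with 0 reads of Hapln1, Snorc and Ucma and 1 read of Acan in all.

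Among the 9 FACIT chains, 4 could be tested and 1 differed. Col12a1 (ENSMUSG00000032332), which lies on fibril surfaces and near basement membranes, stood at 663.4, 618.1 and 638.2 normalized counts with UK-5099 and at 339.1, 349.4 and 379.1 with the 3 inhibitors. The conditions were well apart, with a log2 fold change of 0.85 ± 0.07 (SE), or 1.80-fold higher (limma adjusted p = 1.40e-06). Col16a1 had means of 80.1 ± 12.3 and 89.9 ± 3.6 normalized counts (log2 fold change -0.18 ± 0.16, limma adjusted p = 0.377), and Col9a3 20.8 ± 2.2 and 21.3 ± 8.6 (0.03 ± 0.32, limma adjusted p = 0.939).

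Col20a1 turned on 1 library. It stood at 14.22, 15.78 and 48.72 normalized counts with UK-5099 and at 31.95, 34.85 and 32.89 with the 3 inhibitors (log2 fold change -0.55 ± 0.40, limma adjusted p = 0.267). Without UK-5099 replicate 3 it was lower (-1.10, limma adjusted p = 0.00339). It also overlaps another annotated gene, BX649560.1, on the same strand over 741 bases, so its level is uncertain. Col14a1 had 18 reads, Col9a2 3, Col22a1 2, Col19a1 1 and Col9a1 0.

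Col26a1 (ENSMUSG00000004415), a small collagen outside the main classes, stood at 139.2, 142.9 and 159.5 normalized counts with UK-5099 and at 62.88, 87.58 and 89.53 with the 3 inhibitors. It was higher in each UK-5099 library, with a log2 fold change of 0.89 ± 0.16 (SE), or 1.85-fold (limma adjusted p = 5.78e-04). Col28a1, also outside the classes, had 2 reads.

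Col8a1, a short-chain collagen that forms hexagonal networks, had the greatest difference among the 17 tested chains. It stood at 5.080, 1.856 and 6.090 normalized counts with UK-5099 and at 38.14, 66.13 and 43.85 with the 3 inhibitors. The log2 fold change was -3.30 ± 0.40 (SE), or 9.86-fold lower (limma adjusted p = 2.97e-05). It reached the minimum mean only through the 3-inhibitor libraries. Its partner Col8a2 had 7 reads, all in UK-5099 libraries, and Col10a1, the short chain of hypertrophic cartilage, had 6.

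The transmembrane Col23a1 was at 6.096, 13.92 and 6.090 normalized counts with UK-5099 and at 15.46, 9.830 and 16.44 with the 3 inhibitors, and overlapped (log2 fold change -0.68 ± 0.41, limma adjusted p = 0.187). Col13a1 and Col25a1, of the same class, had no read. The 6 chains of collagen VI, which form beaded filaments in connective tissue, had 16 reads among them, and none could be tested.

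**Figure D3:**
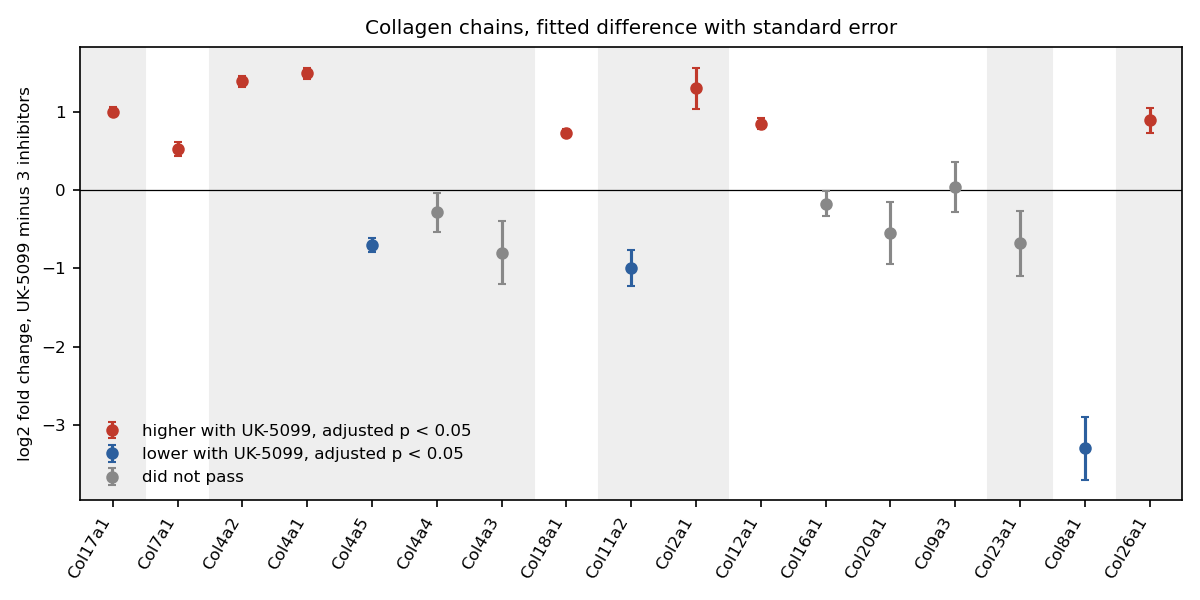
Log2 fold change (UK-5099 minus 3 inhibitors) of the 17 collagen chains tested, with bars of 1 standard error. Red points passed as higher, blue as lower and grey did not pass. Col4a1, Col4a2 and Col2a1 lie above 1, and Col8a1 lies at -3.30.

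Levels of different chains can be set beside each other only per length, which is done here for the 8 chains whose mean over all libraries was at least 100 normalized counts. Per kb of exon, Col17a1 was at 1990 ± 158.4 normalized counts under UK-5099 and 995.1 ± 24.5 under the 3 inhibitors, and Col18a1 at 643.7 ± 45.0 and 388.6 ± 8.4 (SD, n = 3). These were the top chains in both conditions. With UK-5099 the next were Col4a2 (189.5 ± 17.5 per kb), Col4a1 (138.1 ± 12.3) and Col4a5 (66.7 ± 5.3). With the 3 inhibitors Col4a5 came first of these (109.0 ± 11.1 per kb), before Col4a2 (72.2 ± 2.0) and Col4a1 (49.1 ± 1.4). Col7a1, Col12a1 and Col26a1 followed in that order in both, with 48.7 ± 4.7, 42.0 ± 1.5 and 18.0 ± 1.3 per kb in UK-5099 and 33.8 ± 2.9, 23.4 ± 1.4 and 9.78 ± 1.8 in the other. Each chain of this order lay apart from its neighbour by more than the sum of their SDs, and among these 8 chains, with Col4a5 left aside, the order was the same in both conditions.

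**Figure D4:**
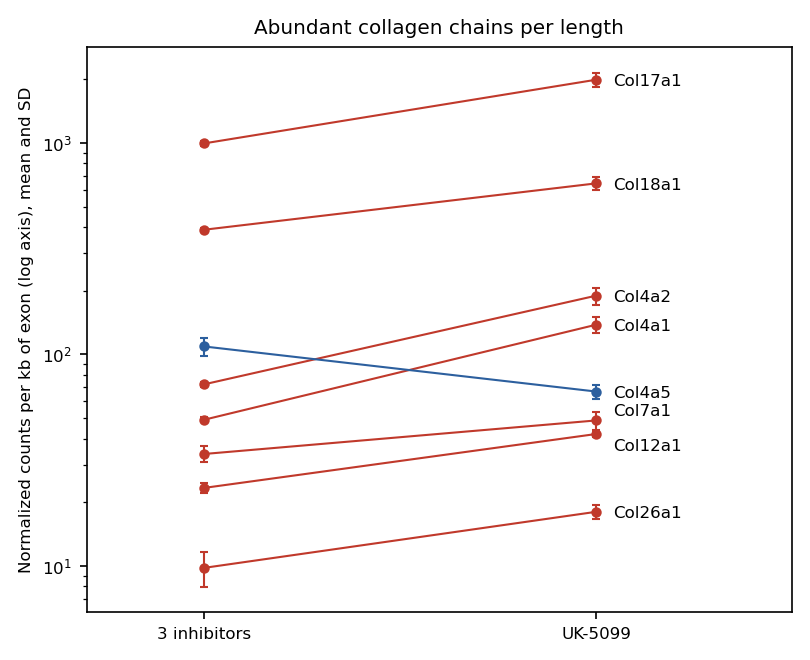
Normalized counts per kb of exon (log axis) of the 8 collagen chains whose mean over all libraries reached 100 normalized counts, as mean and SD over 3 libraries in each condition. Lines join the conditions, red for chains higher with UK-5099 and blue for the lower one. Col4a5 crosses the lines of Col4a1 and Col4a2.

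Genes that act with collagens were read from lists of partners, which are described by counts only. Beside these counts stand the shares over all genes tested, 27.2% higher and 26.6% lower with UK-5099, and no list was tested against them. Of 8 genes of the hemidesmosome and its laminin ligand, 6 were higher with UK-5099, 1 was lower and 1 did not pass, with a median log2 fold change of 0.23. Dst, whose epithelial form links keratin to the hemidesmosome, was at 28031 ± 1579 and 20093 ± 545.3 normalized counts (SD, n = 3), a log2 fold change of 0.48 ± 0.05 (limma adjusted p = 7.37e-06). The integrin chains Itga6 and Itgb4 had 0.39 and 0.26 (limma adjusted p = 5.91e-05 and 4.05e-04). The log2 fold change of Col17a1, 1.00, was above that of each of the 8, a gap between genes that was not tested. The tetraspanin Cd151 was lower (-0.15), and the laminin chain Lama3 had 0.10 without passing (limma adjusted p = 0.0988).

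Other components of the basement membrane were split. Of 13 genes 9 could be tested, with 3 higher, 5 lower and 1 not passing, and a median log2 fold change of -0.42. Sparc, a matrix protein that binds collagen IV, was at 1339 ± 73.2 normalized counts under UK-5099 and 110.2 ± 7.2 under the 3 inhibitors (log2 fold change 3.59 ± 0.08, limma adjusted p = 5.65e-11). Lamb1, a laminin chain, was also higher (1.09, limma adjusted p = 3.42e-07). In the opposite direction Lama5 stood at 10788 ± 1048 and 30804 ± 898.7 normalized counts (-1.52 ± 0.06, limma adjusted p = 5.54e-09), and Lamb2 at 541.6 ± 31.1 and 1358 ± 28.4 (-1.33 ± 0.06, limma adjusted p = 1.02e-08). Among these laminin chains, then, Lamb1 was higher and Lama5 and Lamb2 lower, as the collagen IV chains also differed in both directions.

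Enzymes that modify collagen chains in the endoplasmic reticulum were split as well, with 4 of 13 tested higher, 5 lower and 4 not passing (15 listed, median log2 fold change -0.08). P4ha2, a prolyl 4-hydroxylase subunit whose product stabilizes the triple helix, was at 1017 ± 149.6 normalized counts under UK-5099 and 3659 ± 24.0 under the 3 inhibitors (-1.86 ± 0.08, limma adjusted p = 9.76e-09). P4ha1, the related subunit, was lower too (-0.59, limma adjusted p = 1.57e-05), as was the lysyl hydroxylase Plod1 (-0.64, limma adjusted p = 9.15e-05). P3h4, a partner of prolyl 3-hydroxylases, was higher, at 707.9 ± 63.3 against 334.0 ± 23.8 normalized counts (1.08 ± 0.08, limma adjusted p = 7.99e-07).

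Of 10 genes of collagen folding and export, 9 were tested, with 4 higher, 2 lower and 3 not passing (median log2 fold change 0.27). Serpinh1, which encodes the collagen chaperone HSP47, was scarce, at 19.6 ± 4.1 and 2.19 ± 0.44 normalized counts (SD, n = 3; log2 fold change 2.68 ± 0.40, limma adjusted p = 1.49e-04). Fkbp10, a prolyl isomerase of the endoplasmic reticulum, was at 49.1 ± 6.7 and 9.62 ± 4.5 (2.32 ± 0.33, limma adjusted p = 1.13e-04). Both reached the mean needed for testing only through the UK-5099 libraries, and Serpinh1 was not tested when any of these was left out. Sar1b, a GTPase of transport vesicles, was also higher (0.34) and Mia3, the TANGO1 receptor that loads collagen into them, was lower (-0.39), with limma adjusted p = 6.64e-05 and 3.43e-05.

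Of 9 genes of procollagen processing, 4 were tested, 2 higher and 2 lower (median log2 fold change 0.19). The enhancers of C-propeptide cleavage went in opposite directions. Pcolce was at 331.7 ± 19.1 and 931.3 ± 51.0 normalized counts (-1.49 ± 0.07, limma adjusted p = 1.81e-08), and Pcolce2 at 122.3 ± 6.5 and 36.1 ± 8.2 (1.76 ± 0.19, limma adjusted p = 1.25e-05). Bmp1, the C-proteinase itself, was higher (0.77, limma adjusted p = 8.85e-05) and the proprotein convertase Furin lower (-0.38, limma adjusted p = 2.32e-05).

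Crosslinking genes were lower in 3 of 4 tested cases (7 listed, median log2 fold change -1.09). Loxl4, a lysyl oxidase, was at 1561 ± 14.3 and 2931 ± 113.1 normalized counts (-0.91 ± 0.04, limma adjusted p = 2.27e-08). Loxl2, the lysyl oxidase that crosslinks the 7S region of collagen IV, was at 45.7 ± 15.3 and 143.6 ± 9.9 (-1.68 ± 0.21, limma adjusted p = 3.65e-05), and the transglutaminase Tgm2 had -1.27 (limma adjusted p = 1.28e-05). Pxdn, peroxidasin, which forms the sulfilimine bonds of collagen IV, was slightly higher (0.23 ± 0.07, limma adjusted p = 0.0170), and missed the threshold when libraries were centred on their median (limma adjusted p = 0.117) or when 3-inhibitor replicate 1 or 3 was left out (0.0576 and 0.0551).

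Of 10 collagen receptor genes, 6 were tested, with 1 higher, 2 lower and 3 not passing (median log2 fold change 0.12). Itga2, the alpha chain of an integrin that binds collagen, was at 511.1 ± 21.2 and 359.0 ± 36.5 normalized counts (0.51 ± 0.08, limma adjusted p = 3.02e-04). The discoidin receptor Ddr1 was lower (-0.23, limma adjusted p = 0.00260) and so was the integrin chain Itga10 (-1.05, limma adjusted p = 0.00464). Degradation genes had 1 higher and 3 lower of 4 tested (9 listed, median log2 fold change -0.22). Mmp2, a gelatinase that also cuts collagen IV, was at 114.9 ± 27.0 and 33.3 ± 2.9 normalized counts (1.73 ± 0.20, limma adjusted p = 2.41e-05). Mmp14, its membrane-bound activator, was lower (-0.32), as were the peptidases Pepd (-0.40) and Prep (-0.13), with limma adjusted p of 1.82e-04, 2.08e-04 and 0.0151. Prep missed the threshold without 3-inhibitor replicate 2 or 3 (0.0606 and 0.0540) and in limma without the trend (0.0528).

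**Figure D5:**
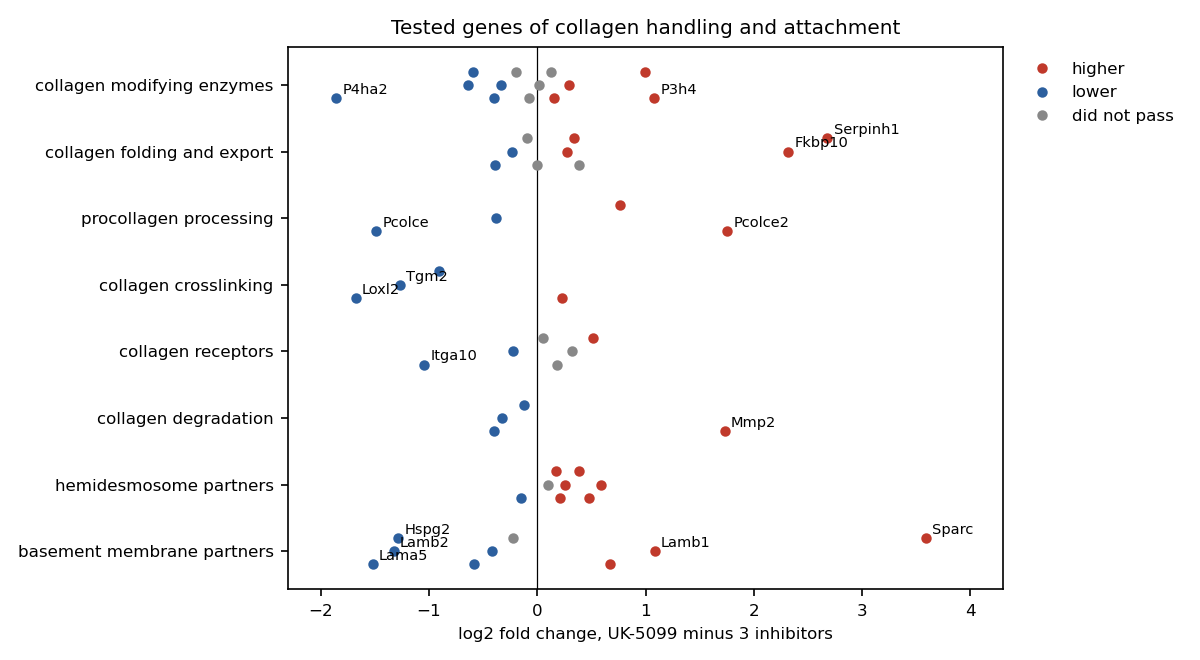
Log2 fold change (UK-5099 minus 3 inhibitors) of each tested gene in 8 lists of collagen-related genes, a point for each gene. Red points passed as higher, blue as lower and grey did not pass, and genes that differed by at least 2-fold are named. Hemidesmosome genes lie close to 0, and Sparc lies at 3.59.

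A8301 blocks TGF-beta receptors, and the targets of that pathway include many matrix genes. Of 15 such targets 13 were tested, with 3 higher, 8 lower and 2 not passing, and a median log2 fold change of -0.42. Tgfbi, a matrix protein, was higher with UK-5099 (1.17, limma adjusted p = 3.87e-08). Nedd9 (-1.55), an adaptor, and Skil (-0.66), a SMAD corepressor, were lower, with limma adjusted p of 6.35e-08 and 6.12e-07. Of all genes tested, 26.6% were lower and 27.2% higher.

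Markers of other cell types that could have been in the cultures were low, with exceptions. Of 12 fibroblast markers, only Fbln1, also a basement membrane gene, was tested (457.3 ± 44.9 and 285.9 ± 18.9 normalized counts, log2 fold change 0.67, limma adjusted p = 7.47e-05). Lum, Postn and Tcf21 had no read, Dcn 5 and Pdgfrb 4. The summed fibroblast level was 414.8 to 503.9 normalized counts with UK-5099 and 293.2 to 319.9 with the 3 inhibitors, nearly all of it Fbln1. Of 10 smooth muscle and pericyte markers 2 were tested. Notch3, which basal cells also express, was higher (0.98, limma adjusted p = 8.41e-07), and Tagln did not pass (-0.04, limma adjusted p = 0.924). The sums, 1740 to 2201 and 984.8 to 1081, were nearly all Notch3. Acta2 had 14 reads and Des 2.

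Of 10 endothelial markers 4 were tested. Tie1 and Vwf were lower with UK-5099 (-2.68 and -1.33), Tie1 having passed the filter only through the 3-inhibitor libraries. Egfl7 and Tek did not pass (0.48 and 0.08), the sums were 106.0 to 136.4 and 209.2 to 228.8, and Cdh5, Cldn5 and Emcn had no read. Of 8 glial and neuronal markers 3 were tested, among them Tubb3 (2.86) higher and Mbp (-1.32) lower, and Sox10 had 1 read. The sums of this list, 3689 to 3902 and 5208 to 5561, were nearly all Mbp and Tubb3. Of 8 leukocyte markers 2 were tested, with Cd74 lower (-1.90), which passed the filter only through the 3-inhibitor libraries, and Cd68 not passing (0.22). The sums, 495.6 to 708.8 and 530.8 to 561.8, were mostly Cd68. Ptprc had 3 reads in all. Lyz2 was at 0, 0.928 and 0 normalized counts with UK-5099 and at 11.34, 20.55 and 9.135 with the 3 inhibitors. Csf1r and Cd79a had no read with UK-5099 and 22 and 17 reads in all with the 3 inhibitors. Some listed markers of fibroblasts (Lum, Dcn), cartilage (Acan, Hapln1) and endothelium (Cdh5, Kdr, Pecam1) thus had between 0 and 8 reads each in all libraries. Other listed markers had more, among them Pdgfra 37, Ogn 35 and Pi16 25 for fibroblasts and Prg4 50 and Comp 31 for cartilage. Of the tested markers, Fbln1 had 2220 reads for fibroblasts, and Vwf 547, Egfl7 259, Tie1 146 and Tek 76 for endothelium. Ogn, Pi16 and Comp were lower in every UK-5099 library than in any 3-inhibitor library. For Ogn the values nearest each other are 5 reads in each library and differ only by the size factors. Whether the cells behind the markers listed here, Lyz2, Notch3, Tie1, Vwf, Tubb3, Mbp and Cd74 included, have a part in the collagen differences was not tested.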

How the data were processed

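RNA sequencing of 6 libraries from mouse airway basal cells was analysed, 3 for each condition. The library kit was VAHTS Universal V8, per the labels. HISAT2 2.1.0, DESeq2 1.36.0 and the build GRCm39 are named, without roles, by the submitters' processing notes. The counter, gene annotation and strand setting were not given in the sources used here. As deposited by the authors, the table has a unit other than plain counts. It holds log2 values of gene counts, each scaled by the authors with the size factor of its library, and an error text stands for a count of 0.

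Normalized counts were obtained as powers of 2 of the values. Of 57107 entries, 359 repeated an identifier, leaving 56748 genes, 25708 of them at 0 throughout. Values were whole multiples of the worth of 1 read for 99.9875% to 99.9920% of the nonzero values per library (within 0.02 of a whole number), so reads could be recovered. Depth was 19909589 to 27037795 gene reads per library. Values that rest on a few reads are limited by counting error.

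The 15704 genes averaging 10 or more normalized counts were fitted on log2(normalized count + 1) in R 4.3.3 by limma 3.58.1 (lmFit and trended eBayes, two-sided, no covariate), with Benjamini-Hochberg adjustment over all of them and a threshold of 0.05. A pseudocount of 1 understates the log2 fold change of low genes. Folds are powers of 2 of fitted values. The steps were tested on simulated data. Alternatives were other scalings, filters, pseudocounts and thresholds, limma without trend or robust, limma-voom on recovered reads, the replicate number as a block, and leaving out each library.

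The members, the 16 other gene lists and the tests were chosen with earlier results of these data known. Chains tested were named, in full where the mean was at least 100 or a called difference at least 2-fold, those under the filter where a library reached 10, up to 4 called genes of each other list by smallest adjusted p, and all tested markers of other cell types. Some genes that this rule names are not reported here. Other chains and genes given as levels, read counts or sex-linked values were named after their values were seen. Exon lengths, start sites and overlaps come from GENCODE M21 (GRCm38). Promoters are RefSeq (GRCm38.p6), matched by symbol for 35 of 44 members, as 250 bases before the start. Those of Col4a5 and Col17a1 were trimmed to leave out annotated UTR. The stretch of Col4a1 and Col4a2 lies inside the main Col4a1 transcript.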

Additional observations from a re-analysis of the deposited data

How the results depend on the processing

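The 17 tested chains and 56 other named genes were refitted under 17 alternatives. Of the chains, 15 kept their direction where called and their side of the threshold in each alternative in which they were tested, and of the other genes 49 did. With a minimum mean of 50 normalized counts 8 of the chains were not tested, and Serpinh1 was not tested there or when any UK-5099 replicate was left out. No value that had passed reversed. The exceptions among chains were Col4a3 and Col20a1, which passed as lower without UK-5099 replicate 1 and replicate 3 (adjusted p = 0.0343 and 0.00339). Among the other genes, leaving out 1 library ended the call of Pxdn and Prep and brought a call for Cdh1 and Egfl7 (UK-5099 replicate 3) and Cd68 (UK-5099 replicate 2), with adjusted p from 0.0540 to 0.0606 for the lost calls of Prep and Pxdn. At that minimum mean of 50, 1 chain was lower instead of 3, because Col11a2 and Col8a1 were no longer tested. There 7 chains were higher instead of 8, because Col2a1 was not tested either. Without Col17a1 the collagen share of all counts was 0.0367% with UK-5099 and 0.0227% with the 3 inhibitors. Cdh1 also passed as lower with the replicate block (0.0299), limma-voom (0.0394), no low filter (0.0443) and median centring (0.00805), and Krt15 with median centring (0.0183). Genes called over the whole table ranged from 6648 (threshold 0.01) to 9146 (without UK-5099 replicate 3), beside 8449, and limma-voom on recovered reads called 8635. Upper-quartile rescaling moved the median log2 fold change of all genes by 0.029 and median centring by -0.089.

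Replicate numbers were checked for pairing. Deviations of same-numbered libraries correlated at -0.017, 0.116 and -0.089, and not every library correlated best with its own number. With 3 libraries per condition this check cannot tell whether same-numbered libraries share an origin. With the replicate block 8423 genes were called, and 8 chains were higher and 3 lower, as without it. Chains with few reads could not be compared at this depth.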

Other observations

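Among the 27 chains too scarce for testing, Col14a1 and Col8a2 had replicates that did not overlap between the conditions. The share of all genes too scarce for testing with such replicates was not counted, so this only describes these chains. Col14a1, a chain on fibril surfaces, was at 4.064, 1.856 and 8.525 normalized counts with UK-5099 and at 1.031, 1.787 and 1.827 with the 3 inhibitors, where the values nearest each other are 2 reads in each library and differ only by the size factors. Col8a2 was at 1.016, 0.928 and 6.090 with UK-5099 and at 0 in each 3-inhibitor library, and it passed only when genes were not filtered on level (limma adjusted p = 0.0372). These rest on 18 and 7 reads in all and were singled out after their values were seen. Col27a1, a fibrillar chain, was at 5.080, 5.568 and 8.525 against 6.185, 2.681 and 3.654, and overlapped.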
